A study of Mus musculus with 12 samples.

Results

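The experiment described here compared transcript levels in a T cell line with and without interleukin 2 (IL-2) while translation was blocked. CTLL-2 is an established mouse cytotoxic T cell line from a C57BL/6 mouse that depends on IL-2 for growth. The members were the arrays labelled as IL-2 with cycloheximide, replicates 1, 2 and 4, and the 4 arrays labelled as cycloheximide for 4.5 h, which makes 7 of the 12 arrays of the series. All cells had been grown in 50 U/mL human recombinant IL-2 and then kept without it for 14 h. Both groups then received cycloheximide, an inhibitor of translation elongation, at 20 µg/mL. In the first group 100 U/mL human recombinant IL-2 was added after 30 min and the cells were collected 4 h later; in the second no IL-2 was added, so both groups had been in cycloheximide for 4.5 h. Another group of 4 arrays, from cells given cycloheximide for 30 min (0.5 h) only, entered the statistical fit to share its estimate of spread and is quoted as a range beside some genes. All groups had been starved and had received cycloheximide. Cells that received no cycloheximide, which the series' text also lists, were not analysed here. CTLL-2 is 1 cell line, and nothing in the labels ties a replicate to its own culture. The p-values below therefore rest on the scatter among these arrays, part or all of which may be technical.

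IL-2 signals through a receptor of alpha, beta and common gamma chains. The beta and gamma chains carry the kinases JAK1 and JAK3, which phosphorylate STAT5 proteins, and STAT5 dimers enter the nucleus and bind DNA. The receptor also feeds the RAS to MAP kinase cascade and the PI3K to AKT pathway. These steps use protein that the cell already holds, and cycloheximide is commonly used to look for transcripts that respond without newly made protein. Cycloheximide by itself also stabilises some short-lived mRNAs, which is why a control held in the drug for the same time matters.

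Each array was an Affymetrix Mouse Genome 430 2.0 array and gave 1 linear signal for each of 45037 probe sets that are not controls. All 4 arrays of the 4.5 h group were scanned on a day of their own. The 3 IL-2 arrays were scanned on another day together with 3 of the 30 min arrays, so scan day and group cannot be told apart. The actin 3′ minus 5′ probe set difference, a sign of RNA length, was 0.222 to 0.269 on the log2 scale on the IL-2 arrays and 0.418 to 0.797 on the 4.5 h arrays. Replicate 2 of the 4.5 h group had the highest of these values and stood somewhat apart from the rest of its group: it correlated with them at 0.957 to 0.959, and they with each other at 0.973 to 0.974. The library labelled IL-2 with cycloheximide, replicate 3, was left out because it carried next to no T cell transcripts: its summed signal of 9 T cell markers was 313.8, against 129879 to 139603 on the IL-2 arrays used and 156823 to 196225 at 4.5 h. On the 7 arrays the T cell receptor chain gene Cd3d gave 22511 to 36744, the perforin gene Prf1 22233 to 28648 and Cd8a, the coreceptor of cytotoxic T cells, 87.3 to 334.8. The summed signal of 5 B cell markers was 61.3 to 192.1 with IL-2 and 173.2 to 384.4 at 4.5 h, and that of myeloid markers 499.1 to 682.7 and 694.1 to 1028. For 7 muscle markers the sums were 2348 to 2770 and 3761 to 4927, of which 1 probe set, Ckm, made up most, and its part in the results was not tested. Because these are bulk samples, fewer cells with a transcript and less of it per cell cannot be told apart.

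Of 27022 probe sets bright enough to test, 3281 (12.1%) were called, meaning an adjusted p under 0.05 (limma, Benjamini-Hochberg over all probe sets tested) with at least a 2-fold difference. With IL-2, 1791 (6.63%) were higher and 1490 (5.51%) lower. With the brightest probe set standing for each gene, 643 of 12754 genes (5.04%) were higher and 758 (5.94%) lower, and 103 genes rose and 92 fell by 4-fold or more. At 8-fold or more the counts were 21 genes higher and 3 lower. The IL-2 arrays lay all above the 4.5 h arrays for 2636 genes (20.7%) and all below for 3177 (24.9%). Most genes named below were picked for such separation or for a small p. That their groups do not overlap is therefore a description and no added support. The median gene differed by −0.0737 on the log2 scale, and the median of the brightest 10% of genes by −0.233. When arrays were centred on ribosomal protein genes, the median of all probe sets moved to 0.779, the split turned to 9150 higher and 240 lower probe sets, and 128 of the 758 lower genes and 643 of the 643 higher genes kept their call. Falls are therefore given below relative to the arrays' common scale, and the genes whose call ended under that centring are named with their group. Of 49 gene lists, 24 had more genes called higher than lower, and 46 did under that centring. At an unadjusted p under 0.05, 18.3% of all genes were higher and 22.7% lower, the background for such counts in each list. For calls in each list the background is 5.04% higher and 5.94% lower. Without replicate 2 of the 4.5 h group, 563 of the higher and 644 of the lower genes kept their call.

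**Figure D1:**
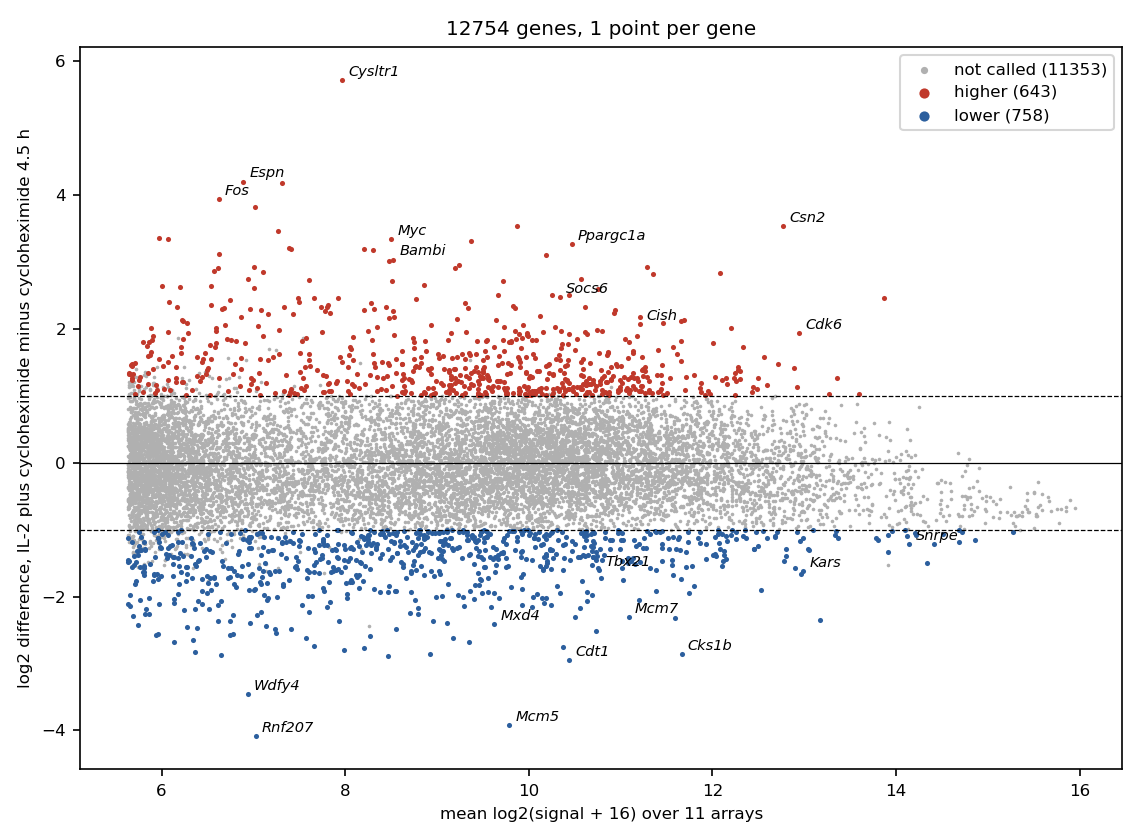
Each point is 1 of 12754 genes, placed by its mean log2(signal + 16) over 11 arrays and by its log2 difference, IL-2 plus cycloheximide minus cycloheximide 4.5 h; red marks 643 genes called higher, blue 758 called lower, grey the rest, and dashed lines a 2-fold difference. The largest rises (Cysltr1, Espn, Igfals) reach further from 0 than the largest falls (Rnf207, Mcm5, Wdfy4), and the brightest genes lie mostly below 0.

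STAT5 dimers bind DNA at short palindromes, and E2F factors bind sites of another kind in front of S phase genes, so motifs of both kinds, and 3 others, were searched in the 250 bases before each transcription start (RefSeq, GRCm38.p6). On either strand, TTCNNNGAA stood in the window of 9.28% of the 517 called-higher genes with a window, 6.25% of the 608 called-lower ones, 7.18% of the 10318 tested genes from which the called ones come and 8.13% of all 27025 genes in the table. TTTNGCGC stood in 2.71%, 2.63%, 2.31% and 1.31% of the same groups, so called genes lay close to the tested genes. The E box CACGTG stood in 9.48%, 7.73%, 9.46% and 6.86%, and the AP-1-type TGANTCA in 5.22%, 6.74%, 5.99% and 7.82%. Among called genes with a window, TTTNGCGC stood in 5 of 25 DNA replication genes (20.0%), including Rfc3, which rose. It stood in 1 of 23 mitosis genes, 0 of 4 cytokine signalling inhibitors and 0 of 8 MAP kinase phosphatase and Sprouty genes. TTCNNNGAA stood in 3, 0, 1 and 0 genes of these lists, in the same order. Of the serum response element 2 forms were searched, which stood in the window of no called gene and of 0.07% of tested genes. The stretches below are shown because their genes carry results given further on: a casein gene, a signalling inhibitor and a cytokine that rose, and a repressor that fell (STAT5-type match), then a helicase subunit and a DNA methylation reader that fell and a MYC paralog that rose (E2F-type match). Capitals mark the matched letters on either strand, including overlapping or neighbouring matches of the same motif, and each is written 5′ to 3′ on the gene's strand. A match is a description of these letters and not a measured binding site.
Csn2 (chr5:87699486-87699545, minus strand): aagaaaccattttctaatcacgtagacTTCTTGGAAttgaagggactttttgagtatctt
Socs3 (chr11:117969487-117969546, minus strand): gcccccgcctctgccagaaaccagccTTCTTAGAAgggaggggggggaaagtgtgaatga
Lta (chr17:35205472-35205531, minus strand): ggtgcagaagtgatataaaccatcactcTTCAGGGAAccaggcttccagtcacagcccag
Bcl6 (chr16:23988923-23989042, minus strand): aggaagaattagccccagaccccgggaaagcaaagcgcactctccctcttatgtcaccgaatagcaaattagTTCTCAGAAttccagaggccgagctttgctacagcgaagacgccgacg
Mcm5 (chr8:75109329-75109388, plus strand): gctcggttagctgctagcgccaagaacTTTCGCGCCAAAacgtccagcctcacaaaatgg
Uhrf1 (chr17:56304103-56304162, plus strand): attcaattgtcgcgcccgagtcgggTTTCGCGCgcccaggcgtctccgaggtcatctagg
Mycn (chr12:12941987-12942046, minus strand): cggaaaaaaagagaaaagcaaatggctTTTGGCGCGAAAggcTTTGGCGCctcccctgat

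Several inhibitors of cytokine signalling rose with IL-2: 6 of 16 tested were called higher and 0 lower, with a median of 0.586 against −0.0737 over all genes. At an unadjusted p under 0.05 in limma, 8 were higher and 1 lower. All those called are CIS and SOCS proteins, which carry an SH2 domain, bind activated receptors or JAKs and shut the signal down. Cish gave signals of 10029, 8965 and 9781 on the IL-2 arrays against 1891, 4959.6, 1551 and 1812 at 4.5 h, and was 721 to 910.5 at 30 min. Replicate 2 at 4.5 h was the highest of its group for this gene but still below every IL-2 array, and the log2 difference was 2.07 ± 0.33 (SE), adjusted p = 0.0014. Socs1, an inhibitor that binds JAKs directly, gave 2839, 2960 and 2499.7 with IL-2 and 529, 936, 465 and 370.4 without it, a 4.98-fold rise. Socs3 gave 10153, 9364 and 7613 with IL-2 against 2347, 3884, 2252 and 2579.7 at 4.5 h. As with Cish, the IL-2 arrays stood apart from all 4.5 h arrays, of which replicate 2 was the highest (log2 difference 1.73 ± 0.22, adjusted p = 4.0e-04). Socs6, a relative studied mostly for its action on receptor tyrosine kinases, gave 3901, 3364 and 3551 in the IL-2 group and 709.5, 500.4, 778 and 585 in the 4.5 h group (log2 difference 2.47 ± 0.17, adjusted p = 2.2e-05). Unlike Cish and Socs1, it was higher at 30 min, at 1089.6 to 1345, than at 4.5 h. Socs2 rose from a bright base, 15596, 14109 and 14219 on the IL-2 arrays against 6360.4, 7789, 6245 and 6415 at 4.5 h, by 1.13 on the log2 scale, and Socs4 rose by 1.09. Socs2 lost the call when probe sets of a gene were averaged. Socs4 lost the call without IL-2 replicate 1 (log2 difference 1.14), IL-2 replicate 2 (log2 difference 1.15), IL-2 replicate 4 (log2 difference 0.98) or 4.5 h replicate 3 (log2 difference 0.99).

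**Figure D2:**
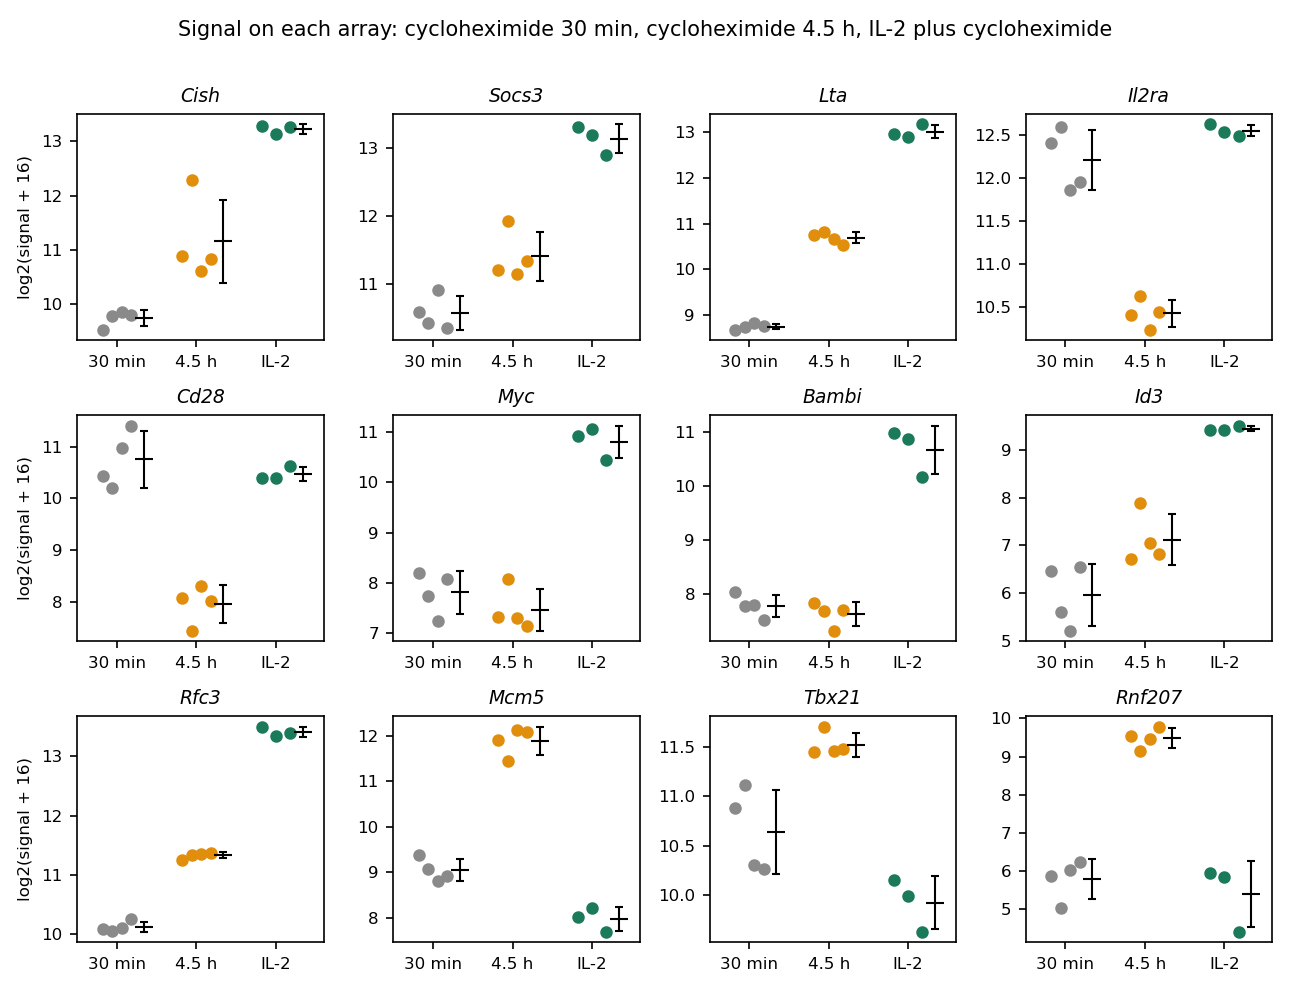
Each panel plots log2(signal + 16) of 1 gene on the vertical axis; points are arrays (4 at 30 min in grey, 4 at 4.5 h in orange, 3 with IL-2 in green) and black marks give the mean ± SD. Green points lie above all orange points from Cish to Rfc3 and below all of them for Mcm5, Tbx21 and Rnf207, while grey points match the green ones for Il2ra and Cd28 but not for Cish, Lta or Rfc3.

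Among the receptor chains, kinases and STATs themselves, 2 of 11 tested genes rose and 1 fell, with a median of 0.00286. Il2ra, the alpha chain that gives the receptor its high affinity, gave 6296, 5941 and 5743 with IL-2 and 1342, 1566, 1192 and 1381 without it (log2 difference 2.12 ± 0.19, adjusted p = 7.7e-05). At 30 min it stood at 3721 to 6157, so its IL-2 level lay within or above that range and the 4.5 h level lay below it. Stat2 and Irf9, which take part in the response to type I interferon, both rose. Irf9 gave 1168, 1133 and 1165 with IL-2 against 256, 313, 269.5 and 231 at 4.5 h, and Stat2 rose by 1.44 on the log2 scale. Tyk2, a JAK used by interferon and IL-12 receptors and not by the IL-2 receptor, gave 304, 337 and 268 in the IL-2 group and 749.7, 1025, 662 and 712 in the 4.5 h group (log2 difference −1.32 ± 0.17, adjusted p = 4.9e-04). The chains and transducers that IL-2 itself uses did not pass the call: Il2rb differed by 0.70, Jak1 by 0.40, Jak3 by −0.26, Stat5a by −0.18, Stat5b by 0.0029 and Stat3 by 0.88. Of 29 interferon factors and response genes 4 rose and 0 fell, and at an unadjusted p under 0.05 9 were higher and 6 lower. Besides Stat2 and Irf9 those called included Zbp1, a sensor of Z-form nucleic acid, at 1083, 1004 and 1037 on the IL-2 arrays against 351, 409.8, 335 and 249 at 4.5 h. Tyk2 lost the call with ribosomal protein centring and when probe sets of a gene were averaged.

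Secreted cytokines and growth factors rose in 7 of 21 cases and fell in 1, with a median of 0.466. Lta, which encodes lymphotoxin alpha, gave 7953, 7671 and 9219.9 with IL-2 and 1698, 1777, 1613 and 1468 without it. It was lower still at 30 min, at 391 to 434, so it stood higher after 4.5 h of cycloheximide alone and higher again with IL-2 (log2 difference against 4.5 h 2.32 ± 0.13, adjusted p = 8.7e-06). Osm, oncostatin M, gave 7933, 7319 and 5955 with IL-2 against 926, 1727, 848 and 853 at 4.5 h, with all 3 IL-2 arrays above the highest 4.5 h array. Hbegf, a ligand of the EGF receptor, gave 3838, 3332 and 2709 in the IL-2 group and 301, 545, 226 and 255 in the 4.5 h group, a 9.98-fold rise. Ifng, interferon gamma, gave 939, 1007 and 719.7 on the IL-2 arrays against 52.5, 62.8, 126 and 105 at 4.5 h, and the groups did not overlap. Vegfa, the vascular growth factor, rose by 1.82 from 191, 87.3, 206 and 144 at 4.5 h. Tnf and Csf1 were dim and rose by 1.01 and 1.06, close to the 2-fold limit. The 1 member that fell was Igf1, at −1.81 from 178, 286, 158 and 243. Tnf lost the call with a pseudocount of 64 and with quantile normalization. Csf1 lost the call when probe sets of a gene were averaged and with a pseudocount of 64. Igf1 lost the call with ribosomal protein centring and when probe sets of a gene were averaged. Tnf lost the call without IL-2 replicate 2 (log2 difference 0.90), 4.5 h replicate 1 (log2 difference 0.99) or 4.5 h replicate 2 (log2 difference 0.80). Csf1 lost the call without 4.5 h replicate 1 (log2 difference 0.94). Igf1 lost the call without IL-2 replicate 2 (log2 difference −1.70), IL-2 replicate 4 (log2 difference −1.35), 4.5 h replicate 2 (log2 difference −1.68) or 4.5 h replicate 4 (log2 difference −1.75).

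Surface receptors for other signals changed in a small number of cases, some of them large. Cysltr1, a receptor for cysteinyl leukotrienes, ranked first among rises, with 2468, 1645 and 2528 with IL-2 and 42.9, 74.1, 3 and 13.6 without it (log2 difference 5.72 ± 0.51, adjusted p = 7.0e-05). Its 4.5 h signals are near the bottom of the scale, so the 52.7-fold value, on the log2(signal + 16) scale, rests on where that floor lies. It was 172 to 527 at 30 min. Ccr4, a chemokine receptor of helper and regulatory T cells, rose as well, 994, 764 and 1262 with IL-2 against 272, 378, 267 and 253 at 4.5 h. They come from a list of chemokines and chemoattractant receptors in which 2 of 19 rose and 2 fell, among them the chemokine gene Ccl5, which fell by 1.82. In the TNF receptor and costimulation list 4 of 20 rose and 0 fell, and at an unadjusted p under 0.05 10 were higher and 1 lower. Tnfrsf8, which encodes CD30, gave 919, 825 and 1082 in the IL-2 group and 104, 78, 98.4 and 72.9 in the 4.5 h group, a 9.2-fold rise with no overlap. Cd28, the main costimulatory receptor of T cells, gave 1328, 1322 and 1572 on the IL-2 arrays against 254, 158, 299 and 244 at 4.5 h. Its 30 min range, 1162 to 2696, was as high as with IL-2, so the 4.5 h group was the one that stood low. Cd80, a ligand of CD28, rose by 1.27, and Cd69, an early activation marker, by 1.23. Of 21 other cytokine receptors 3 rose, among them Il10ra (1.55 ± 0.16, adjusted p = 1.4e-04) and Il4ra (1.25 ± 0.16, adjusted p = 3.9e-04), and 0 fell, with a median of −0.0388. At an unadjusted p under 0.05, 4 were higher and 5 lower. Ccl5 lost the call with ribosomal protein centring and with a pseudocount of 64. Il10ra lost the call when probe sets of a gene were averaged. It stood at 1109 to 1537 at 30 min, near its IL-2 level of 1280 to 1577.

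Feedback inhibitors of the MAP kinase cascade rose in 10 of 25 cases and fell in 0, with a median of 0.567. At an unadjusted p under 0.05, 13 were higher and 1 lower. Dusp phosphatases remove phosphate from MAP kinases, and Sprouty and Spred proteins act upstream at RAS and RAF. Dusp1 gave 5016, 4434 and 2407 with IL-2 and 263, 372, 278 and 340.4 without it (log2 difference 3.54 ± 0.29, adjusted p = 4.7e-05). Dusp4, a nuclear phosphatase, gave 4277, 3888 and 4684 with IL-2 against 729.5, 515, 616 and 712 at 4.5 h. Dusp6, the cytoplasmic phosphatase of ERK, gave 2703, 2659 and 2200.1 in the IL-2 group and 761, 670.5, 587 and 554 in the 4.5 h group. These 3 phosphatases all separated the groups completely. Dusp5 and Dusp16 rose by 1.57 and 1.62. Spred1 gave 2254, 2696 and 2144 on the IL-2 arrays against 255, 363, 321 and 272 at 4.5 h, an even 7.49-fold rise across arrays. Spry4 rose by 2.65 and Spred2 by 1.14; Spred2 was as high at 30 min (1891 to 2350.5) as with IL-2 (2096, 2029 and 1802). Rgs16, which speeds up GTP hydrolysis on G protein alpha subunits, rose by 2.06.

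Among the cascade's own components 2 of 30 rose and 2 fell, with a median of 0.2. With ribosomal protein centring 14 rose and 0 fell. Rasgrp1, an activator of RAS in T cells, rose by 1.16 ± 0.20, adjusted p = 0.0023. Map2k3 and Map2k2, kinases of the p38 and ERK branches, fell by 1.57 and 1.45 on the log2 scale. Map2k3 gave 1544, 1460.3 and 1689 with IL-2 and 4427, 4832, 4612 and 4784 without it, and Map2k2 gave 1122, 952 and 718 with IL-2 against 2473, 2831, 2403 and 2462 at 4.5 h. The groups did not overlap for either. At 30 min Map2k3 was 1620 to 2498, near or above its IL-2 level, and Map2k2 1411.5 to 2330, between the groups. In the PI3K list, 1 of 34 rose and 5 fell, and with ribosomal protein centring 11 rose and 1 fell. Pik3r1, the main regulatory subunit, gave 1202, 1422 and 1991 in the IL-2 group and 695, 626, 580.4 and 588 in the 4.5 h group. Pik3r2, another regulatory subunit, moved the other way, with 369, 245 and 107 on the IL-2 arrays against 954, 925, 835 and 921 at 4.5 h (adjusted p = 0.0078). Pik3ip1, an inhibitor of PI3K, gave 1704, 1755 and 1093 with IL-2 and 4373, 3171, 4466 and 4955 without it, and Sesn1, an inhibitor of mTORC1, fell by 1.28. Of 7 PIM, AKT and SGK kinases 3 rose: Pim2 (1.43 ± 0.30, adjusted p = 0.0056), Pim3 (1.23 ± 0.16, adjusted p = 4.9e-04) and Sgk3 (1.26 ± 0.14, adjusted p = 2.1e-04), an AKT-related kinase. Pim1, often used as a STAT5 target, differed by 0.41 (adjusted p = 0.21), with 1766, 1507 and 2475 with IL-2 against 1394, 1635, 1437 and 1183 at 4.5 h, so the groups overlapped. Map2k3, Map2k2 and Sesn1 lost the call with ribosomal protein centring. Pik3ip1 lost the call with ribosomal protein centring and when probe sets of a gene were averaged. Pim3 lost the call when probe sets of a gene were averaged.

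In the TGF-beta, NF-kappaB, Notch and T cell receptor lists single regulators were called. Bambi, a decoy receptor that dampens TGF-beta signals, gave 2009.5, 1856 and 1131 in the IL-2 group and 213, 191, 144 and 192 in the 4.5 h group (log2 difference 3.03 ± 0.22, adjusted p = 3.0e-05). Smurf1, a ubiquitin ligase for SMAD proteins, gave 1836, 1684 and 1692 on the IL-2 arrays against 277, 390.1, 299 and 318 at 4.5 h. Tgif1, a corepressor in the same pathway, fell by 1.45, and in all 2 of 19 members rose and 2 fell. For NF-kappaB 2 of 22 rose, the subunit Rel (1.44 ± 0.28, adjusted p = 0.0039) and the inhibitor Tnip2 (1.63 ± 0.25, adjusted p = 0.0011), while the nuclear inhibitor Nfkbid fell (−1.62 ± 0.30, adjusted p = 0.0029). In the Notch and Wnt list Rbpj, the DNA-binding partner of Notch, gave 5965, 5524 and 5897 with IL-2 and 2377, 2467, 2359.7 and 2318 without it. Lfng, a glycosyltransferase that modifies Notch, rose by 1.52, and Hes1, a Notch target, by 1.26. Lfng was 3481 to 6796 at 30 min, around its IL-2 level of 4519 to 4888. Mfng, a relative of Lfng, fell by 1.27 and the Wnt effector Lef1 by 1.55. Mfng was 1732 to 2335 at 30 min, near or above its IL-2 level of 1514 to 1785. Of 25 T cell receptor components 2 rose, among them the adaptor Grap2 (605, 654 and 526 with IL-2 against 123, 129, 82.4 and 131 at 4.5 h), and 0 fell, with 9 higher and 10 lower at an unadjusted p under 0.05. Zap70 differed by −0.84 and was not called. Tgif1, Nfkbid, Mfng and Lef1 lost the call with ribosomal protein centring.

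Some immediate early transcription factors rose with IL-2, and most list members were not called. In the AP-1, ATF and MAF list 7 of 25 rose and 2 fell, with a median of 0.417. Fos gave 1005, 942 and 583 in the IL-2 group and 61, 90.2, 26.4 and 9.7 in the 4.5 h group (log2 difference 3.94 ± 0.57, adjusted p = 8.4e-04) and was 5.1 to 81.6 at 30 min. Fosl1, a FOS relative, gave 594, 474 and 452 on the IL-2 arrays against 57.8, 21, 58.8 and 45.8 at 4.5 h. Jun, their usual partner, gave 3506, 3691 and 2483 with IL-2 and 1257, 1089, 1143 and 1466 without it, a smaller 2.56-fold rise. All 3 separated the groups. Atf3 rose by 2.32, in a narrow range on both sides (1086, 1082 and 1208 with IL-2 against 239, 185, 217 and 209.5 at 4.5 h), and Maff by 2.24. Jdp2, which represses AP-1 sites, fell by 1.29. Among 22 EGR, NR4A, IER and KLF genes 5 rose and 1 fell. Egr1 gave 15746, 14158 and 10739 in the IL-2 group and 1232, 3314, 1365 and 1714 in the 4.5 h group, replicate 2 again the highest at 4.5 h. Egr2 rose by 2.31, and Nr4a3, an orphan nuclear receptor induced by antigen, gave 1846, 2082 and 3094 on the IL-2 arrays against 411, 450.3, 466 and 458 at 4.5 h. Outside these lists Etv5, an ETS factor downstream of ERK, gave 683, 784 and 615 with IL-2 and 104, 69.1, 102 and 86.3 without it, a 6.71-fold rise. Jdp2 lost the call with ribosomal protein centring and when probe sets of a gene were averaged. Nr4a3 lost the call when probe sets of a gene were averaged.

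In the MYC network both activators and antagonists were called. Of 14 members 5 rose and 2 fell. Myc gave 1916, 2113 and 1381 with IL-2 against 145, 255, 141 and 126 at 4.5 h (log2 difference 3.34 ± 0.29, adjusted p = 5.9e-05), and 30 min arrays lay at 135 to 279. Its paralog Mycn, whose promoter stretch is printed above, gave 1581, 1798 and 1585 in the IL-2 group and 86.5, 423, 162 and 130.2 in the 4.5 h group. The IL-2 arrays all exceeded the highest 4.5 h array, replicate 2. Mga, a partner of MAX, and Mlx, a MAX-like protein, rose by 1.54 and 1.22. Mnt and Mxd4, which compete with MYC for MAX, fell. Mnt gave 664, 574 and 399 on the IL-2 arrays against 2402, 1981, 2183 and 2613 at 4.5 h, and Mxd4 gave 229, 212 and 76.7 with IL-2 and 833, 982, 841 and 976 without it. Mxi1, another antagonist, went the opposite way, at 1.28 ± 0.12, adjusted p = 1.0e-04. Mxi1 was 4771 to 5470 at 30 min, nearer its IL-2 level of 6034 to 6256 than its 4.5 h level of 2287.5 to 2650. Mnt lost the call when probe sets of a gene were averaged.

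Factors that steer T cell fate split into 5 that rose and 4 that fell among 39 tested, with a median of −0.0715. With ribosomal protein centring 13 rose and 0 fell, and the median became 0.724. Id3, an inhibitor of E proteins, gave 665, 669 and 714 with IL-2 against 88.5, 221, 116 and 97.6 at 4.5 h and 20.9 to 77.2 at 30 min. Irf4, needed for effector differentiation, gave 400.3, 346 and 515 in the IL-2 group and 119.7, 78.6, 64.8 and 20.7 in the 4.5 h group. Ikzf4, which encodes the Ikaros family protein Eos, gave 2013, 1983 and 2061 on the IL-2 arrays against 434, 894, 461 and 547 at 4.5 h. All 3 had every IL-2 array above every 4.5 h array. Tbx21, which encodes T-bet, fell, 1120.3, 999.7 and 774 with IL-2 and 2784, 3320.4, 2799 and 2833 without it (log2 difference −1.60 ± 0.23, adjusted p = 7.5e-04). Irf8, a related factor of the IRF family, gave 6466, 5814 and 6503 with IL-2 against 13175, 14692, 12994 and 12321 at 4.5 h, close to the 2-fold limit. Bcl6, a repressor that opposes effector programs and whose promoter stretch is printed above, gave 186, 149 and 128 in the IL-2 group and 384, 429.5, 402 and 443 in the 4.5 h group. In the circadian list 3 of 14 rose, among them the repressors Per2 (215, 179.6 and 204 on the IL-2 arrays against 26.7, 43.3, 52.5 and 17.5 at 4.5 h) and Cry2 (1067, 968 and 1111 with IL-2 and 330.3, 433, 365 and 410 without it), and 1 fell. Tbx21 lost the call with ribosomal protein centring. Irf8 lost the call with ribosomal protein centring, when probe sets of a gene were averaged and with quantile normalization. Bcl6 lost the call with ribosomal protein centring and when probe sets of a gene were averaged.

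Survival genes changed in both directions. Among BCL2 family members 2 of 17 rose and 2 fell. Bcl2 and Bcl2l1, which protect mitochondria, gave 6557, 8378 and 7761 with IL-2 against 2266, 2873, 2299 and 2308 at 4.5 h for Bcl2 and 3852, 2996 and 3096 in the IL-2 group and 1054, 1861, 1377 and 1136 in the 4.5 h group for Bcl2l1. Bbc3 and Bmf, BH3-only proteins that promote death, gave 486, 573 and 233 on the IL-2 arrays against 1782, 949.6, 1709.6 and 1787 at 4.5 h for Bbc3 and 214, 161 and 168 with IL-2 and 596, 737, 684 and 683 without it for Bmf. For each of these 4 genes the groups did not overlap. In the caspase list 3 of 26 rose and 1 fell. Casp8, the initiator caspase of death receptors, gave 6408, 6613 and 5957 with IL-2 against 1347, 1219.9, 1273 and 1332 at 4.5 h (log2 difference 2.28 ± 0.19, adjusted p = 4.8e-05), and Diablo, which releases caspases from IAP proteins, rose by 1.66. Apaf1, the scaffold of the apoptosome, fell by 1.22. Of 28 p53 pathway genes 4 rose and 3 fell, and the risers included the p53 inhibitor Mdm2 (1.19), the stress kinase Plk3 (2.73) and Gadd45b (1.48). Trp53inp1, a target that promotes death, gave 2026, 2167 and 866 in the IL-2 group and 6085, 4578, 6034 and 6163 in the 4.5 h group. Apaf1 lost the call with ribosomal protein centring. Mdm2, Gadd45b and Trp53inp1 lost the call when probe sets of a gene were averaged.

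FOXO factors are active when PI3K signalling is low, and 5 of 25 FOXO and starvation genes fell while 2 rose, with a median of −0.499 that became 0.297 with ribosomal protein centring, where 7 rose and 1 fell. Besides Mxd4, Pik3ip1 and Bcl6 these were Foxo4 (54.3, 70.8 and 60.6 on the IL-2 arrays against 236, 187, 194 and 229 at 4.5 h) and Ccng2, an atypical cyclin induced by FOXO proteins. Ccng2 gave 673, 638 and 741 with IL-2 and 1563, 1695, 1386 and 1523 without it and 7156 to 8923 at 30 min, so both groups held in the drug for 4.5 h lay far below the earlier arrays. Cited2, a coactivator-binding protein, was the list's largest rise, 6805, 6592 and 7345 with IL-2 against 879.5, 1049.7, 946 and 999.9 at 4.5 h (log2 difference 2.82 ± 0.14, adjusted p = 5.7e-06). Foxo4 lost the call with ribosomal protein centring. Ccng2 lost the call with ribosomal protein centring and when probe sets of a gene were averaged.

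Genes for DNA replication had lower signal with IL-2. Of 55 tested 30 fell and 2 rose, with a median of −1.3. With ribosomal protein centring the counts became 13 and 5 and the median −0.508. All 6 subunits of the MCM2-7 replicative helicase fell. Mcm5 gave 242, 281 and 190.1 in the IL-2 group and 3826, 2775, 4471 and 4288 in the 4.5 h group (log2 difference −3.92 ± 0.21, adjusted p = 7.5e-06), Mcm3 284, 290.1 and 259.8 on the IL-2 arrays against 2055, 1347, 2057 and 1810.4 at 4.5 h, and Mcm7 1042, 1182 and 743 with IL-2 and 5068, 4033, 5521 and 5035 without it. Mcm6 fell by 2.05, Mcm2 by 1.95 and Mcm4 by 1.73 on the log2 scale. Their 30 min levels were near or above those with IL-2 (Mcm5 434 to 651, Mcm7 1529 to 1869.7), so the 4.5 h group was the high one. Cdt1, which loads the helicase at origins, gave 417, 552 and 339 with IL-2 against 3393, 3862, 3332 and 3069 at 4.5 h, and Cdc6, its partner, 7.2, 3.7 and 14.9 in the IL-2 group and 78.5, 124, 92.1 and 111 in the 4.5 h group. Gins2, part of the active helicase, gave 34.5, 157 and 152 on the IL-2 arrays against 859, 516, 796 and 922 at 4.5 h. Among polymerase subunits and ligases Pole fell by 2.23, Pold1 by 1.97 and the ligase Lig1 by 2.40. Pclaf, which binds the sliding clamp PCNA, gave 505, 475 and 386 with IL-2 and 3374, 2360.4, 3822 and 3258 without it. Replicate 2 was the lowest 4.5 h array for most of these genes, Cdt1 and Cdc6 being exceptions, and remained above the IL-2 arrays. Mcm4 lost the call with ribosomal protein centring.

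Both replication genes that rose did so against the list. Rfc3, a subunit of the clamp loader, gave 11576, 10331 and 10766 with IL-2 against 2427, 2584, 2598 and 2629.7 at 4.5 h (log2 difference 2.08 ± 0.12, adjusted p = 9.1e-06). Its 30 min signals were 1047 to 1204, lower than at 4.5 h, and the spread within each group was small. Orc1, the largest subunit of the origin recognition complex, gave 318, 261 and 374 in the IL-2 group and 139, 125, 142 and 131 in the 4.5 h group and 10.8 to 60.8 at 30 min. Orc1 lost the call when probe sets of a gene were averaged, with a pseudocount of 1 and with a pseudocount of 64. Orc1 lost the call without IL-2 replicate 1 (log2 difference 1.13) or IL-2 replicate 4 (log2 difference 1.02).

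**Figure D3:**
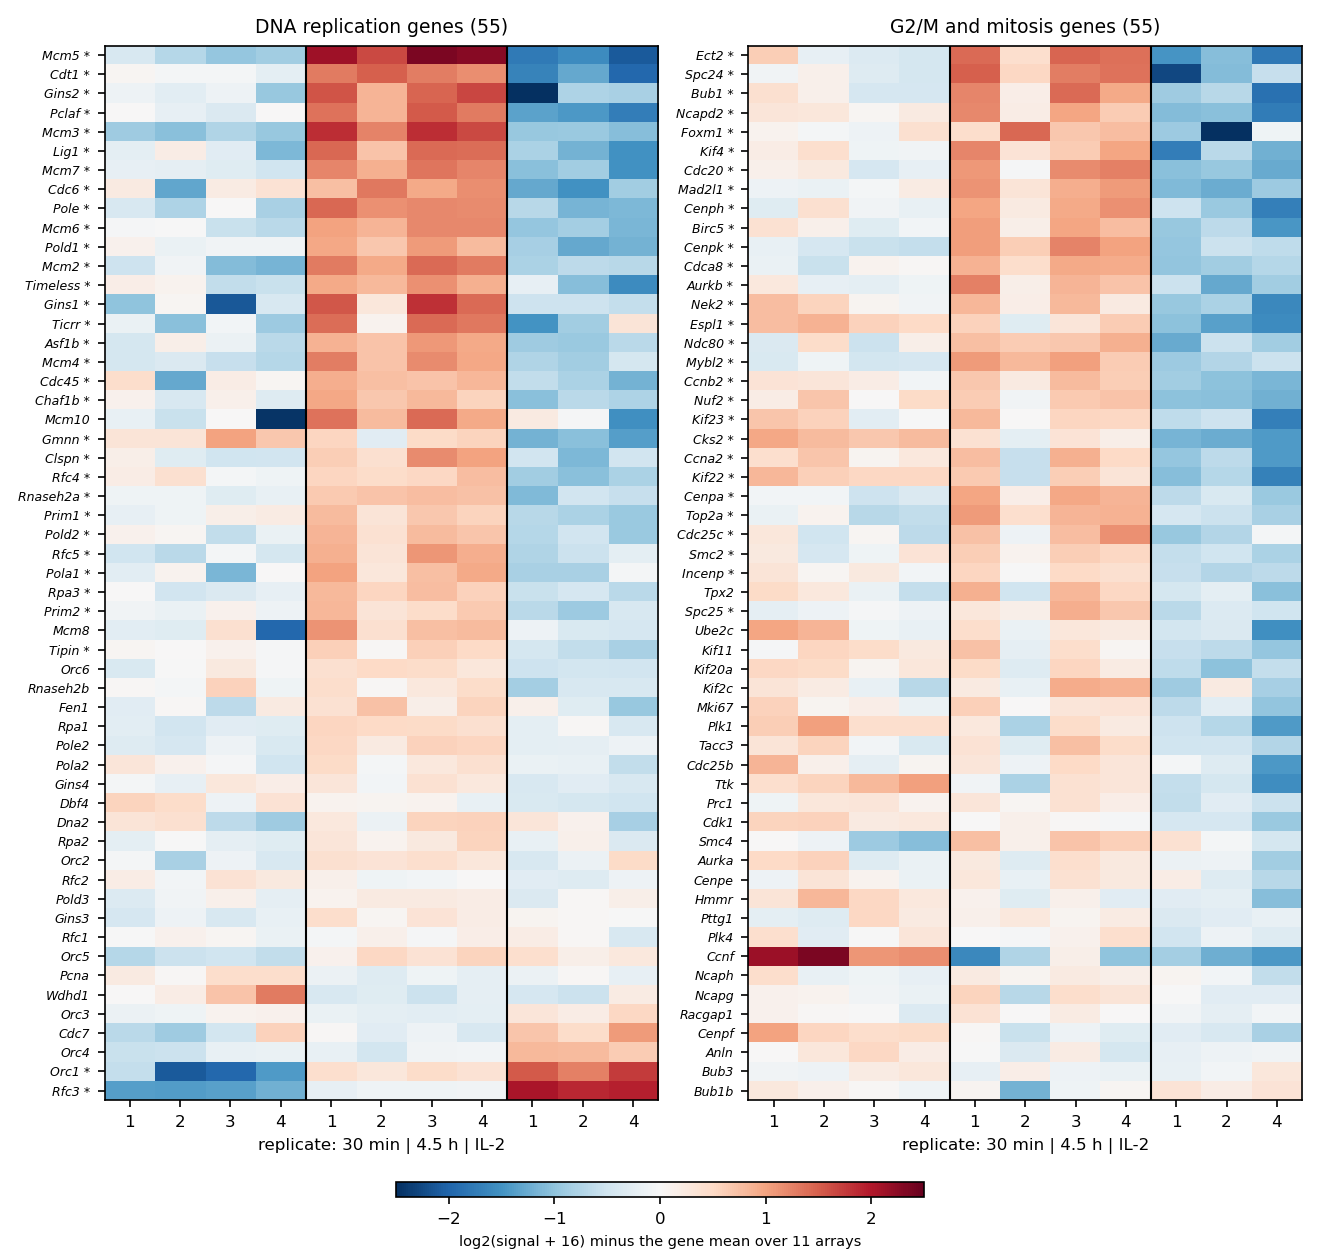
Rows are the 55 tested DNA replication genes (left) and the 55 tested G2/M and mitosis genes (right), ordered by the difference with IL-2, asterisks marking called genes; columns are arrays, replicates 1 to 4 at 30 min, 1 to 4 at 4.5 h and 1, 2 and 4 with IL-2, and colour gives log2(signal + 16) minus the gene's mean over 11 arrays. Most rows are red at 4.5 h and blue with IL-2, with replicate 2 at 4.5 h paler, while Orc1 and Rfc3 at the foot of the left panel show the reverse.

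Nucleotide synthesis genes fell in 14 of 38 cases and rose in 0. In this list 3 genes were higher and 25 lower at an unadjusted p under 0.05. The median of −0.575 became 0.22 with ribosomal protein centring, where 5 rose and 2 fell. Tk1, thymidine kinase, gave 152, 161 and 147 on the IL-2 arrays against 1399, 818, 1479.6 and 1285 at 4.5 h. Dut, which removes dUTP, gave 502, 551 and 432 with IL-2 and 2536, 1519, 2823 and 2374 without it, and Rrm2, the regulatory subunit of ribonucleotide reductase, 1891, 1979.7 and 1902 with IL-2 against 6486, 3659, 6965 and 6422 at 4.5 h. All 3 had non-overlapping groups. DNA repair genes fell in 10 of 40 cases and rose in 0, with 1 higher and 19 lower at an unadjusted p under 0.05. The median, −0.447, became 0.348 with that centring, where 5 rose and 3 fell. Exo1, a nuclease of mismatch repair and end resection, gave 34.4, 2.8 and 17.7 in the IL-2 group and 203, 114, 184 and 151 in the 4.5 h group, and Rad54l, a recombination motor protein, 49.2, 50.8 and 28.8 on the IL-2 arrays against 254, 196, 319 and 307 at 4.5 h. Chek1, the kinase that answers replication stress, fell by 2.28 and Fanca by 1.68 on the log2 scale. Rrm2, Chek1 and Fanca lost the call with ribosomal protein centring.

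Mitotic genes also had lower signal, 29 of 55 falling and 0 rising. At an unadjusted p under 0.05, 42 were lower and 0 higher, and with ribosomal protein centring 9 fell and 1 rose, the median moving from −1.01 to −0.214. Ect2, the exchange factor that starts cytokinesis, gave 51.9, 75 and 39.3 with IL-2 and 492, 238, 507 and 480 without it. Spc24, of the NDC80 kinetochore complex, gave 14.9, 55 and 84.6 with IL-2 against 405, 198, 352 and 372 at 4.5 h, and Ska1, of a neighbouring complex and outside the list, 63, 72.5 and 5.7 in the IL-2 group and 283, 172, 394 and 288 in the 4.5 h group. The 3 genes shared a low replicate 2 at 4.5 h that was still above the IL-2 arrays. Mad2l1, of the spindle checkpoint, gave 727, 657 and 832 on the IL-2 arrays against 3452, 1963, 2962 and 3294 at 4.5 h (log2 difference −1.93 ± 0.21, adjusted p = 1.6e-04). Also outside the list, Melk, a kinase of proliferating cells, and Shcbp1, a midbody protein, were among the 30 largest falls of all genes, at −2.48 ± 0.43 and −2.48 ± 0.51. Foxm1, a transcription factor of G2 genes, fell by 2.05 with wide spread, 59.1, 7 and 115 with IL-2 and 177, 365, 210 and 224 without it.

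Of 23 G1 regulators 2 rose and 2 fell (6 rose and 1 fell with ribosomal protein centring). Cdk6, a kinase that starts G1, gave 21082, 17872 and 17687 with IL-2 against 5499, 6358, 4006 and 4164 at 4.5 h (log2 difference 1.93 ± 0.21, adjusted p = 1.6e-04). Cdc25a, a phosphatase that activates CDKs, gave 961, 924 and 934 in the IL-2 group and 330.1, 413, 405 and 483 in the 4.5 h group. Cks1b, a CDK-binding protein needed to degrade p27, fell, 1313, 1158 and 972 on the IL-2 arrays against 8049.9, 6756, 9292 and 9685 at 4.5 h. The D type cyclin Ccnd2 differed by 0.41 and did not pass the call, its groups overlapping. Of 7 E2F factors tested 1 rose and 1 fell. The riser, E2f5, gave 920, 1672 and 1440 with IL-2 against 340, 524, 457 and 316 at 4.5 h (log2 difference 1.66 ± 0.42, adjusted p = 0.014). At 30 min E2f5 was 397 to 1744. It is not part of the counts of named genes given further on. E2f1, the activator of S phase genes, differed by 0.36 (adjusted p = 0.34), while E2f7, an E2F repressor, fell from a low level, 10.5, 33.5 and 9.1 with IL-2 and 45.5, 84.4, 85.4 and 72.8 without it. Cdc25a lost the call when probe sets of a gene were averaged. E2f7 lost the call with ribosomal protein centring and with a pseudocount of 64.

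Chromatin modifiers were mostly without call, and with ribosomal protein centring 21 rose and 4 fell. In the main fit 2 of 69 rose (2.9%) and 5 fell (7.25%), against 5.04% and 5.94% of all genes. The falls included Uhrf1 and Hells, which maintain DNA methylation at replication. Uhrf1, whose promoter stretch is printed above, gave 159, 97.7 and 65.7 with IL-2 against 670.3, 454, 629 and 627 at 4.5 h and Hells 222, 201 and 211 in the IL-2 group and 1062, 553, 1024 and 877 in the 4.5 h group. Hdac7, a deacetylase expressed in T cells, gave 351, 426 and 265 on the IL-2 arrays against 1325, 1871, 1215 and 1384 at 4.5 h, and the remodeller Chd7 78, 82.2 and 87.5 with IL-2 and 385, 382, 324 and 344 without it. Both groups were apart for all 4. Chd2, another remodeller, rose by 1.39. Chd7 and Chd2 lost the call when probe sets of a gene were averaged.

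Called metabolic genes went in both directions. In glycolysis 3 of 30 rose and 3 fell, and the median of −0.427 became 0.369 with ribosomal protein centring. Hk2, the hexokinase induced in activated T cells, gave 6824, 7216 and 5791 with IL-2 against 1840.5, 2000, 1815 and 1749.9 at 4.5 h (log2 difference 1.82 ± 0.17, adjusted p = 9.1e-05). Eno3, the muscle form of enolase, fell, 444, 385 and 565 in the IL-2 group and 1783, 1990.2, 1939 and 1601 in the 4.5 h group, and was 397 to 524 at 30 min. The muscle marker sum given above was lower on the IL-2 arrays as well, and its part in the result was not tested. Ldhb, a lactate dehydrogenase subunit, gave 127, 167 and 168 on the IL-2 arrays against 560.2, 945, 497 and 364 at 4.5 h. Sterol enzymes rose in part: 4 of 35 lipid synthesis genes rose and 0 fell, and at an unadjusted p under 0.05 9 were higher and 6 lower. Those called were Sc5d (1.28), Cyp51 and Msmo1 (1.49) of the late cholesterol pathway and the sterol carrier Stard4 (1.57). Cyp51 gave 1538, 1479 and 952 with IL-2 and 486, 503, 539 and 544 without it. At 30 min Cyp51 was 1368 to 1977 and Msmo1 2377 to 3272, near or above their IL-2 levels, so the 4.5 h group stood low for both. Stard4 gave 4829, 4609.6 and 6829 with IL-2 against 1862, 1883, 1755 and 1640.5 at 4.5 h, while Msmo1 varied on the IL-2 arrays, at 3168, 2041 and 1391. Ldhb lost the call with ribosomal protein centring and when probe sets of a gene were averaged. Sc5d and Cyp51 lost the call when probe sets of a gene were averaged.

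Among 31 transporters 3 rose and 2 fell (8 rose and 1 fell with ribosomal protein centring). Slc7a3, a carrier of cationic amino acids, gave 1031, 893 and 899 in the IL-2 group and 329, 356, 312 and 266 in the 4.5 h group, and Slc39a10, a zinc importer, 559, 582 and 588 on the IL-2 arrays against 208, 235, 108 and 153 at 4.5 h. Slc43a2, a carrier of neutral amino acids, fell, 89.2, 85.1 and 76.4 with IL-2 and 318, 380.1, 355 and 476 without it. In the respiration list 1 of 57 rose and 2 fell, with a median of −0.352 that became 0.444 with ribosomal protein centring, where 7 rose and 0 fell. The rise was Ppargc1a, a coactivator that drives mitochondrial genes, 14897, 14359.6 and 6713 with IL-2 against 1137, 1259, 1102 and 1132 at 4.5 h (log2 difference 3.27 ± 0.50, adjusted p = 0.0011). IL-2 replicate 4 was the lowest of its group and still above each control array. Of 32 hypoxia and redox genes 2 rose and 6 fell. With ribosomal protein centring 6 rose and 0 fell, and the median moved from −0.435 to 0.361. Egln1, a prolyl hydroxylase that marks HIF for decay, and Ankrd37, both known HIF targets, fell by 1.41 and 1.43; Ankrd37 had stood at 4499 to 6941 at 30 min against 347, 499.5, 452 and 466 at 4.5 h. Egln1 and Ankrd37 lost the call with ribosomal protein centring.

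Among transcripts for the translation machinery few were called. No cytosolic ribosomal protein gene of 42 rose and 4 fell. Yet the IL-2 arrays lay all below the 4.5 h arrays for 38 of them, against 24.9% of all genes, and the median was −0.783. At an unadjusted p under 0.05, 0 were higher and 36 lower. Genes of the brightest 10% had a median of −0.233. Rpl37 gave 2939, 2638 and 1898 in the IL-2 group and 6844, 7957, 7269.9 and 6670 in the 4.5 h group. Of 44 translation factors and tRNA synthetases 0 rose and 4 fell, with 6 higher and 20 lower at an unadjusted p under 0.05, and with ribosomal protein centring 10 rose and 0 fell. Kars, lysyl-tRNA synthetase, gave 4823, 5776 and 3816 on the IL-2 arrays against 15216, 13043, 15168 and 14894 at 4.5 h, and Eef2k, the kinase that halts elongation, 628, 760.2 and 536 with IL-2 and 1914, 2188, 1703 and 2095 without it. Ribosome biogenesis, a program that MYC drives in many cells, had 3 of 64 genes higher, 2 lower and a median of 0.0394. With ribosomal protein centring 20 of these genes rose and 0 fell, and the median became 0.835. Rrp1b, a nucleolar protein, rose, 4316, 4684 and 5782 with IL-2 against 1396, 1862, 1585 and 1557 at 4.5 h, and Dkc1, the pseudouridine synthase of the nucleolus, fell, 507, 615 and 570.3 in the IL-2 group and 2003, 1131, 1872 and 1889.8 in the 4.5 h group. Dkc1 was 327 to 407 at 30 min, below its IL-2 level, so its 4.5 h group was the high one. Rpl37, Kars and Eef2k lost the call with ribosomal protein centring. Dkc1 lost the call with ribosomal protein centring and when probe sets of a gene were averaged.

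RNA decay, folding and stress genes gave few calls. Of 42 decay factors 3 rose and 0 fell, with 14 higher and 9 lower at an unadjusted p under 0.05, the second count near the share over all genes. The decapping activator Dcp1a gave 1930.5, 1996 and 1819 on the IL-2 arrays against 763, 566, 582 and 772 at 4.5 h. No heat shock or chaperone gene of 36 was called by limma, although 4 were higher and 18 lower at an unadjusted p under 0.05. The list's median of −0.426 became 0.37 with ribosomal protein centring, where 8 rose and 0 fell. None of 9 polyamine genes was called either, with 2 higher and 3 lower at that level. In the unfolded protein list 2 of 33 rose and 3 fell (9 rose and 0 fell with ribosomal protein centring), and Pdia4, a disulfide isomerase of the endoplasmic reticulum, gave 1665, 2107 and 1354 with IL-2 and 704, 351, 475 and 388 without it. Pdia4 was 1097 to 1925 at 30 min, near its IL-2 level. Phgdh, the first enzyme of serine synthesis, fell by 1.40. Among 57 proteasome and ubiquitin genes 1 rose and 5 fell, and with ribosomal protein centring 13 rose and 1 fell. Of 42 autophagy and lysosome genes 2 rose and 0 fell, with 9 higher and 9 lower at an unadjusted p under 0.05, near the shares over all genes. Of 44 splicing factors 1 rose and 2 fell (11 rose and 0 fell with that centring), and of 23 calcium and NFAT signalling genes 1 rose and 1 fell. Phgdh lost the call with ribosomal protein centring.

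Effector genes of cytotoxic cells were bright and mostly uncalled, 0 of 28 rising and 2 falling. Of these genes 2 were higher and 12 lower at an unadjusted p under 0.05, and with ribosomal protein centring 2 rose and 0 fell. Gzmb, granzyme B, gave 39115, 34212 and 37333 with IL-2 against 48125, 57102, 46759 and 48832 at 4.5 h and differed by −0.44 (adjusted p = 0.15). Of 28 adhesion genes, 2 rose (7.14%) and 1 fell (3.57%), against 5.04% and 5.94% of all genes. Itga6, a laminin receptor chain, gave 2608, 2682 and 2537 in the IL-2 group and 849, 803, 711 and 862 in the 4.5 h group. Itgb3, the beta 3 chain, gave 813, 794 and 486 on the IL-2 arrays against 145, 213, 165 and 147 at 4.5 h and was higher still at 30 min, at 1440.5 to 1554. Itgb7, the beta chain of gut-homing integrins, moved the other way, 575, 502 and 239 with IL-2 and 1743, 1240.5, 1751 and 1839 without it (log2 difference −1.94 ± 0.36, adjusted p = 0.0028). Itgb7 was 256 to 680 at 30 min, around its IL-2 level, so its 4.5 h group stood high. The actin bundler Espn gave 384, 454 and 444 with IL-2 against 2.1, 9.9, 10.1 and 11.5 at 4.5 h and 146 to 241 at 30 min (log2 difference 4.20 ± 0.21, adjusted p = 5.7e-06). Coro2a, an actin-binding coronin, rose, 996, 783 and 870.3 in the IL-2 group and 63.5, 67.4, 151 and 121 in the 4.5 h group, and Cdc42ep3, an effector of CDC42, fell, 617, 759.5 and 325 on the IL-2 arrays against 3022, 4142, 2846 and 2763 at 4.5 h.

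Some of the largest rises were of genes best known from other tissues. The milk casein Csn2, a classical STAT5 target of the mammary gland whose promoter stretch is printed above, gave 18821, 16624 and 16796 with IL-2 and 1320.2, 2560.1, 1281 and 1144 without it (log2 difference 3.53 ± 0.25, adjusted p = 2.7e-05). Another casein gene, Csn3, gave 7342, 6736 and 9506 with IL-2 against 1105, 976, 1158 and 1061 at 4.5 h. At 30 min Csn2 stood at 14221 to 18587 and Csn3 at 10042 to 12394, so for both the 4.5 h group was low and the IL-2 group near the earlier level. Igfals, a serum binding protein of the IGF system, gave 538, 527 and 959.6 in the IL-2 group and 45.4, 16.2, 13.1 and 15.4 in the 4.5 h group, and Crygf, a lens crystallin, 287, 303 and 488 on the IL-2 arrays against 11.9, 12.4, 41.9 and 10.8 at 4.5 h. Crygf was 236 to 490 at 30 min, around its IL-2 level, so its 4.5 h group stood low. Igfals was 148.5 to 318 at 30 min, between the groups. Stard13 gave 170.5, 263 and 307 with IL-2 and 3.2, 6.5, 9.1 and 19.4 without it, while Hao1, a peroxisomal oxidase of liver, gave 563, 572 and 535 with IL-2 against 81.2, 50.8, 65.5 and 59.3 at 4.5 h. Usp27x, a deubiquitinating enzyme, gave 419.6, 417 and 409 in the IL-2 group and 36.5, 65.9, 27.6 and 41.8 in the 4.5 h group, with nearly equal IL-2 arrays. Gtf2ird1, a general transcription factor relative, gave 3581, 3579 and 4149 on the IL-2 arrays against 478, 499, 368 and 368 at 4.5 h. The other rises among the 30 largest that are not named elsewhere were Fgl2, Pudp, Ankrd33b, Ms4a6d and Repin1, between 2.86 and 3.82 on the log2 scale.

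The largest fall was that of Rnf207, a ring finger protein studied in heart, 45.3, 41.4 and 5 with IL-2 and 722, 555, 682 and 865 without it (log2 difference −4.09 ± 0.39, adjusted p = 9.6e-05). It was 16.8 to 58.9 at 30 min, near the IL-2 level, so the 4.5 h group stood alone. Wdfy4, a protein of antigen cross-presentation, gave 24.3, 8.2 and 16.2 with IL-2 against 290.2, 344, 358 and 332 at 4.5 h. Hmgn5, a nucleosome-binding protein, gave 271, 328 and 152 in the IL-2 group and 1782, 1085, 1966 and 1811 in the 4.5 h group, and Rfx2, a factor of cilium genes, 9.8, 53.1 and 21 on the IL-2 arrays against 359.7, 109.7, 352 and 377 at 4.5 h. Replicate 2 was the lowest 4.5 h array for the last 2, and above every IL-2 array. Dscc1, which loads PCNA to establish cohesion, gave 22.7, 5.9 and 43.6 with IL-2 and 265, 205, 302 and 253 without it. Mndal, an interferon-inducible protein of the p200 family, gave 57.4, 7.6 and 43.4 with IL-2 against 168, 356, 182 and 301 at 4.5 h. Rpl27a fell by 2.59, well beyond the median of its list. The remaining falls among the 30 largest were Abhd8, Zfhx3, Jpt2, Ulk4, Tmem273, Ttc38, Lca5, Iftap and Cntn2, from −2.88 to −2.43.

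**Figure D4:**
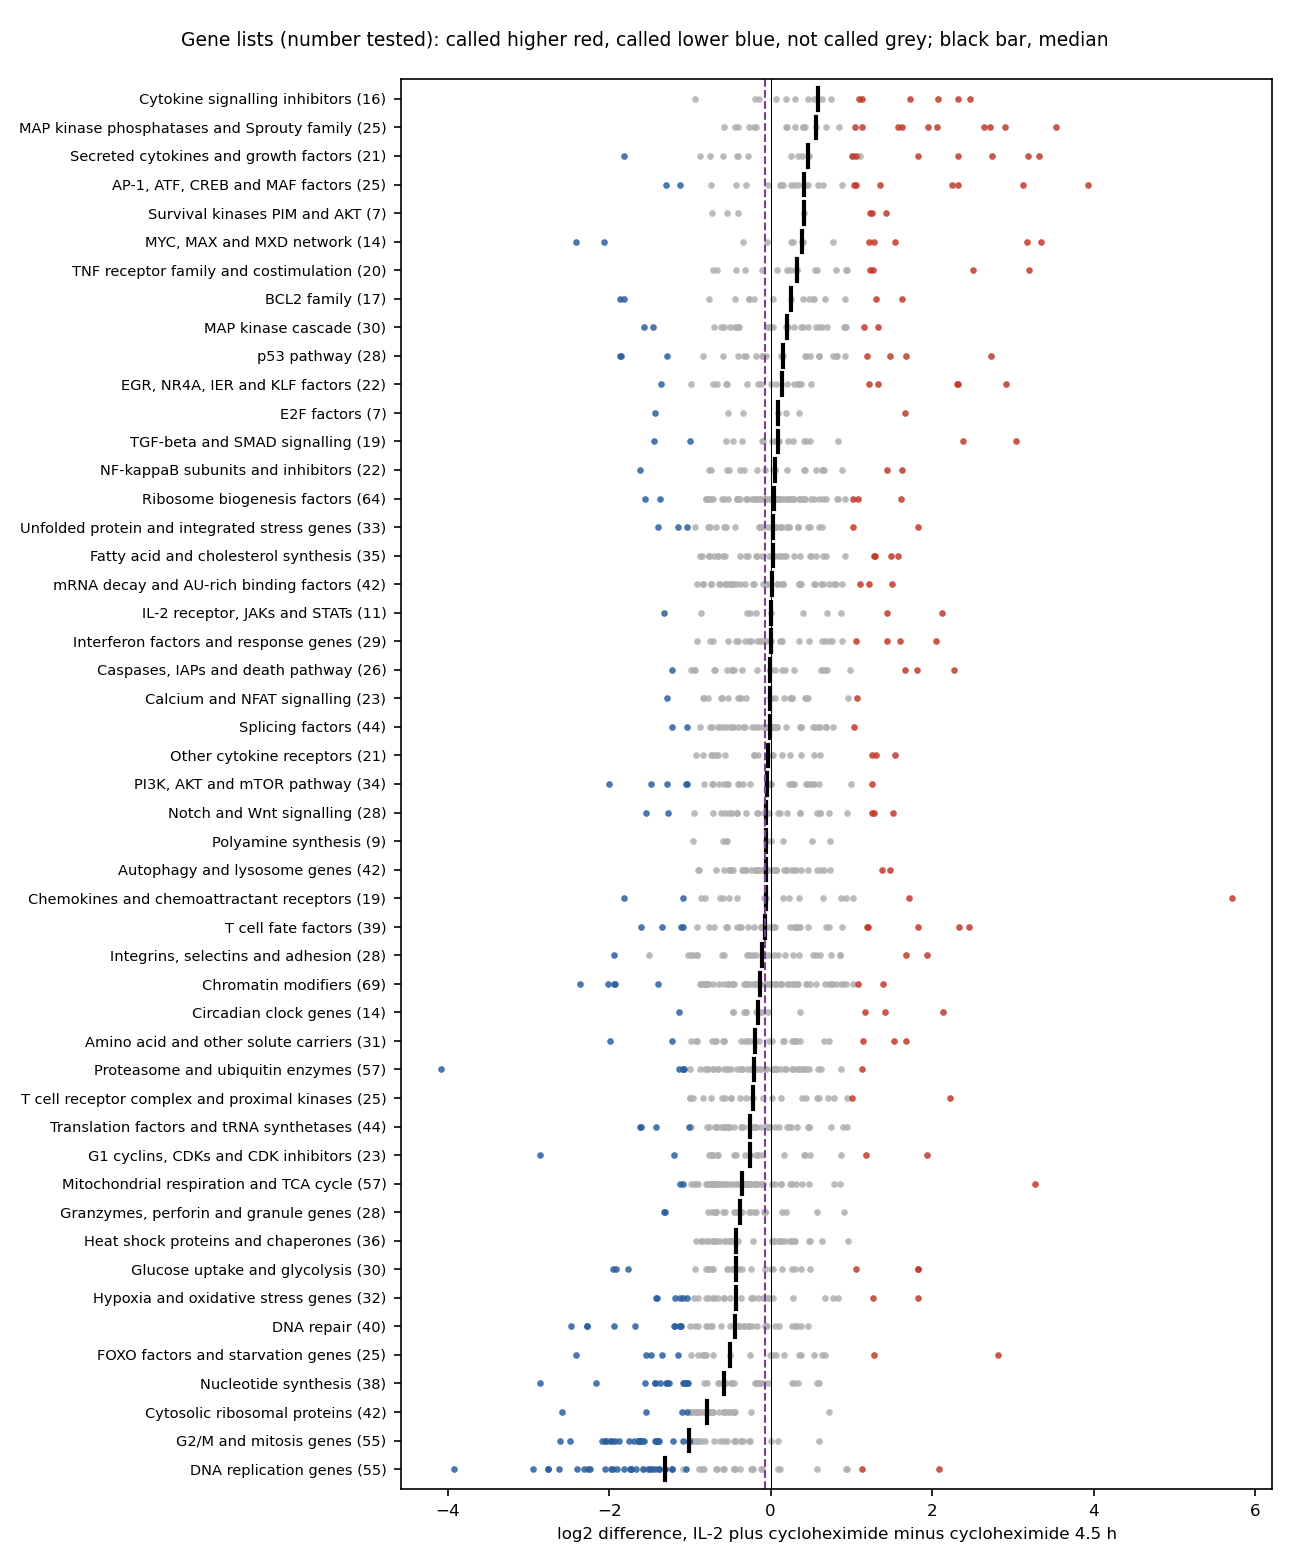
Each row is 1 of 49 gene lists with the number tested in brackets; points are genes placed by their log2 difference, IL-2 plus cycloheximide minus cycloheximide 4.5 h (red called higher, blue called lower, grey not called), the black bar is the list's median and the dashed line the median of all genes. Cytokine signalling inhibitors and MAP kinase phosphatases stand at the top, with medians of 0.586 and 0.567, and DNA replication genes at the foot, with −1.3.

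For 17 of 5800 genes with more than 1 tested probe set, probe sets of the same gene were called in opposite directions: Akap9, Cryl1, Dennd6b, Desi1, Dzip3, Galnt7, Gatad2b, Kpnb1, Lasp1, Mef2a, Msx1, Pcmtd1, Ptprj, Rbm39, Son, Sulf2 and Tnks. A gene level difference for these is therefore not given by 1 probe set. Son, a splicing cofactor, had 4 called probe sets. Its brightest, 1420952_at, gave 3901, 4196 and 7915 in the IL-2 group and 12281, 22320.5, 10991 and 12742 in the 4.5 h group, a difference of −1.46. Probe set 1420951_a_at gave 1441, 1376 and 1583 on the IL-2 arrays against 514, 506, 544 and 467 at 4.5 h, a difference of 1.50, and 2 more rose by 1.84 and 1.14. For Ptprj, a receptor tyrosine phosphatase, 1425588_at gave 725, 585 and 604 with IL-2 and 116, 124, 63 and 147 without it, and 1427629_at 21.6, 6.5 and 28.2 with IL-2 against 49.2, 84.2, 32.3 and 91.7 at 4.5 h. Dzip3, an RNA-binding ubiquitin ligase, had 1454393_at at 16.7, 45.8 and 24.9 in the IL-2 group and 213, 245, 199 and 236 in the 4.5 h group and 1448015_at at 122, 119 and 146 on the IL-2 arrays against 73.9, 33.9, 31.2 and 35.6 at 4.5 h. In each of these pairs the arrays of the groups did not overlap in either direction. Where on the transcripts the probe sets lie was not analysed here.

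**Figure D5:**
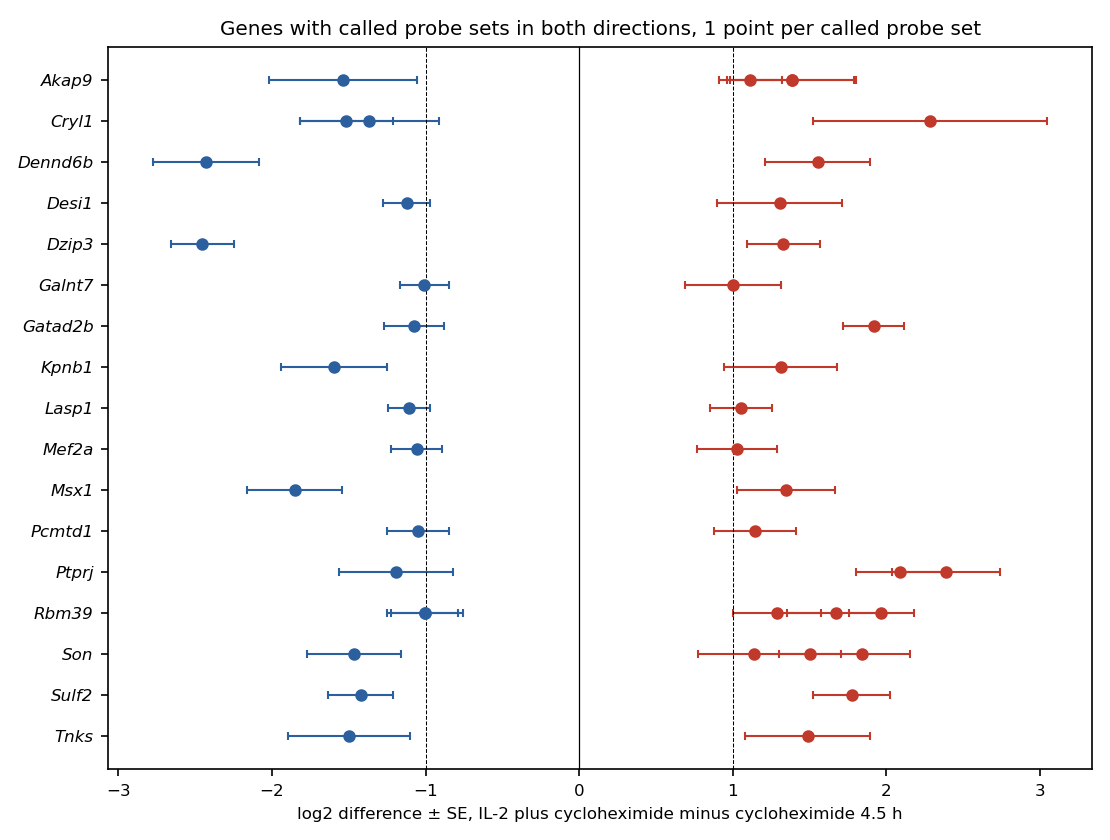
Each point is a called probe set of 1 of the 17 genes on the vertical axis, placed by its log2 difference ± SE, IL-2 plus cycloheximide minus cycloheximide 4.5 h; red points rose, blue points fell and dashed lines mark 2-fold. Every gene has points on both sides of 0, and Rbm39 has the most, with 5.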

How the data were processed

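RNA of CTLL-2 cells was hybridised to Affymetrix Mouse Genome 430 2.0 arrays, 1 sample per array. The deposited values are linear signal intensity per probe set. The authors used GCOS 1.3 (per the submitters' processing notes). How background was corrected and probes summarized is not given in the sources used here. Each array's trimmed mean (2% off each end) is 500 in the deposited intensity values, so they had been scaled before deposit. Precision is limited by how few arrays there are.

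Signals were taken as log2(signal + 16) without further normalization, and a fold is on that scale, which understates changes of dim genes. Probe sets whose mean was at or above the 40th percentile (a signal of 33.6) were tested with limma 3.58.1 in R 4.3.3 on 11 arrays (3 with IL-2, 4 at 4.5 h, 4 at 30 min, 8 residual degrees of freedom), with Benjamini-Hochberg adjustment over all 27022. A call needs an adjusted p under 0.05 and a 2-fold difference. Errors beside log2 differences are standard errors. Of 45037 probe sets 34945 carry 1 gene symbol, 932 several and 9160 none in the platform annotation. Only those with 1 symbol are named, and the brightest tested probe set stands for a gene. Some named genes, Crygf, Mndal and Mcm5 among them, were read by probe sets named _x_at. Whether these also read other transcripts was not tested. The code was tested on simulated data.

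Genes were named by rule: the 30 largest rises and falls with non-overlapping groups, up to 6 genes per list by smallest p, a set of IL-2 pathway genes, and all genes with opposite probe sets. The text uses some of the 369 genes so named, and a few others were added after their values were seen. The comparison's members and the 50 gene lists were chosen with earlier results of these data known, so they are no independent evidence. The result of 1 list is not reported here.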

Additional observations from a re-analysis of the deposited data

Results flagged for a closer look

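In the 4.5 h group, 32 of 222 genes named above had 1 array whose gap to the next passed Dixon's critical value for 4 samples. The gap is taken as a share of the group's range. Chance gives about 5% of groups, and 7.41% of all probe sets tested passed, a lower share than among the named genes. Replicate 2 was the array concerned in 1231 of those 2002 probe sets, high in 629 and low in 602, against 272, 243 and 256 for replicates 1, 3 and 4.
The share for each gene is given in brackets. Replicate 1 was the highest array for Igfals (0.864). Replicate 1 was the lowest array for Csf1 (0.86) and Espn (0.857). Replicate 2 was the highest array for Bcl2 (0.921), Cd3d (0.842), Cish (0.83), Dusp5 (0.887), Il10ra (0.883), Osm (0.878), Phgdh (0.914), Socs2 (0.879), Sulf2 (0.928) and Tbx21 (0.902). Replicate 2 was the lowest array for Ankrd33b (0.896), Bbc3 (0.93), Dkc1 (0.881), Ect2 (0.927), Hmgn5 (0.835), Itgb7 (0.863), Jpt2 (0.843), Kars (0.861), Lig1 (0.953), Maff (0.961), Nfkbid (0.856), Rfx2 (0.944), Rrm2 (0.874), Tgif1 (0.926) and Trp53inp1 (0.929). Replicate 3 was the highest array for Crygf (0.925). Replicate 3 was the lowest array for Grap2 (0.868) and Socs4 (0.832). Replicate 4 was the lowest array for Lef1 (0.955).

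The library labelled IL-2 with cycloheximide, replicate 3, which no comparison here used, had a summed signal of 92606.6 for 7 muscle markers. The range was 2341.6 to 3178 on the 30 min arrays and 3761.4 to 4927.1 on the 4.5 h arrays. Its sum of 6 fibroblast markers was 20967, against 246.6 to 516.7 on the 7 arrays used.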

How the results depend on the processing

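Of 17 alternatives to the main settings, besides leaving out arrays, those that changed a count of called probe sets by more than 1.5 times were the following, and the cause was not tested except where the construction gives it. Centring on ribosomal protein genes gave 9390 (9150 higher, 240 lower). Including the library labelled IL-2 replicate 3, which carries other tissue, gave 1196 (505 higher, 691 lower). A test against 2-fold (limma's treat) gave 238 (148 and 90), a stricter demand by construction, and no fold threshold 7457 (3708 and 3749). Without probe sets whose name carries a letter before _at, such as _a_at, _s_at and _x_at, 936 were lower, from fewer tested. In that setting 148 of the 200 named genes with a call kept it and 1 lost it, and the rest were not tested. Averaging probe sets per gene gave 1592 genes (771 and 821), counting genes and not probe sets. The other settings moved no count by more than 1.5 times; with centring on each array's median, 3266 were called with 59.2% higher, against 54.6% as reported. Leaving out 1 array at a time gave 2969 to 3324 in all, 1551 to 1812 higher and 1347 to 1522 lower, and in each of these settings 0 of the probe sets called in both changed direction. Of 200 named genes with a call, 197 kept it with quantile normalization, 199 with median centring, 167 with ribosomal protein centring, 193 with a pseudocount of 64, 91 with all 12 arrays, 73 with treat and 168 with averaged probe sets.

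The direction turned for some named genes, most of them without a call or with opposite probe sets. With ribosomal protein centring the log2 difference became 0.41 for Cd3d, 0.018 for Ckm, 0.28 for Desi1, 0.55 for Dzip3, 0.35 for Gzmb, 0.54 for Jak3, 0.44 for Lasp1, 0.71 for Mef2a, 0.47 for Rbm39 and 0.62 for Stat5a. With quantile normalization it became 0.26 for Cd3d, 0.24 for Gzmb and −0.069 for Stat5b. With all 12 arrays it became −0.30 for Akap9, −0.28 for Bcl2, −0.53 for Cd69, −1.36 for Il2rb, −0.25 for Jak1, −0.18 for Pcmtd1, −0.63 for Ptprj, −1.01 for Rasgrp1, −0.22 for Sgk3 and −0.82 for Stat5b. With averaged probe sets it became −0.055 for Cryl1, −0.47 for Dennd6b, 0.015 for Dzip3, 0.033 for Galnt7, −0.066 for Kpnb1, 0.028 for Mef2a, −0.25 for Msx1, −0.12 for Pcmtd1, 0.48 for Rbm39, 0.65 for Son, 0.31 for Stat5a and −0.11 for Sulf2. Leaving out arrays moved Stat5b between −0.042 and 0.070. Cryl1, Galnt7 and Kpnb1 lost their call in at least 1 fit that left out an array.

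The groups share replicate numbers. Deviations of IL-2 and 4.5 h arrays with the same number correlated at −0.0177, −0.0128 and −0.00517 for the pairs 1, 2 and 4. Between IL-2 and 30 min arrays they correlated at 0.126, 0.0915 and 0.216, and pairs with different numbers at −0.193 to 0.165. So few arrays cannot show whether replicates were prepared together, and the main fit did not pair them. With the replicate block 3187 probe sets were called (1703 higher, 1484 lower), 198 of 200 named genes kept their call, and Stat5b turned to −0.13.

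Signal over background limits dim genes: where signals lie near the 16 added before the logarithm, the fold depends on that number.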
